A study of Homo sapiens with 9 samples.

Results

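The genes described here are CDKN1A, MDM2, GDF15, RRM2B, SESN1, ZMAT3, TP53INP1, BTG2 and GADD45A, well known direct targets of the transcription factor p53. They were taken by symbol from a fixed list of names, which was drawn up with earlier results of these data known, and are 9 of the 60605 genes in the deposited table. Each symbol had 1 entry, and all 9 genes were among the 21395 that passed the filter on low levels, which asked for 0.1 FPKM or more on average over the 9 libraries. FPKM divides a gene's count by the length of its exons and by the depth of the library, so it can be compared between genes. The study asked what happens in esophageal squamous cell carcinoma (ESCC) cells when the long noncoding RNA PARylator, the product of LINC00885, is depleted. RNA-seq was carried out on TE13, an established ESCC cell line, in 3 groups of 3 libraries. The first group had received a control siRNA, the second PARylator siRNA.1 and the third PARylator siRNA.2. All 3 groups were thus transfected, and neither the dose nor the time after transfection is given in the labels. The series records the 3 libraries of a group as biological replicates, so p-values measure the spread between such cultures of a single cell line, with a single control siRNA.

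p53 is a transcription factor that is stabilised by DNA damage and other stresses, binds a pair of short half-sites near its targets and raises their transcription. Its targets hold the cell cycle, repair DNA, supply nucleotides, limit growth signalling or lead to cell death, and MDM2 closes the loop by marking p53 for destruction. In squamous epithelium the related protein p63 recognises a similar sequence. Several of these targets also answer to other inputs, and GDF15 in particular is a known target of the ATF4 arm of the stress response.

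The p53 element is shown for the genes whose promoters could be read, because it is the sequence through which this family of factors reaches its targets. The p53 consensus element, a pair of 10-base half-sites without a spacer that reads the same on both strands, was compared with 2500 bases on each side of the transcription starts that RefSeq lists (GRCh38). Of the 9 genes, 6 have a start in the RefSeq table, and RRM2B, TP53INP1 and GADD45A do not. The best match is printed 5′ to 3′ on the gene's strand for the 5 genes with at most 2 mismatches. Capitals mark the 4-base core of each half-site.
CDKN1A: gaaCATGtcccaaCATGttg
MDM2: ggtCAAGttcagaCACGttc
GDF15: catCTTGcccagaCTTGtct
ZMAT3: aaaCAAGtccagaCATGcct
BTG2: acgCATGttcaggCATGcat

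The ZMAT3 match had 0 mismatches, and the other 4 had 2 each. The CDKN1A match lay at chr6:36676449-36676468 on the plus strand, at position -2265 from the start used, and it crossed the first base of the gene as annotated by GENCODE. The MDM2 match lay at chr12:68808923-68808942 in an intron, 751 bases downstream of the start used, out of 4 listed. The same bases lay within the 250 bases upstream of other listed MDM2 starts (windows chr12:68808767-68809016 and chr12:68808774-68809023). The GDF15 match, at chr19:18385308-18385327, began at position -850 from the RefSeq start, inside an intron of a longer transcript. The BTG2 match, at chr1:203303642-203303661, began at position -1877, outside BTG2 and in an exon of the divergent transcript BTG2-DT. The ZMAT3 match lay in an intron at chr3:179070188-179070207 on the minus strand, and is printed below with its surroundings, since an unbroken match was rare, with the 20 matching bases in capitals.
ZMAT3 intron: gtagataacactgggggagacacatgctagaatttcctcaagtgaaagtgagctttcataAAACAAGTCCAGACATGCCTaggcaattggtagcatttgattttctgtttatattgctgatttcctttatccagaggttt

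Among all 27305 genes of the RefSeq table, 0.117% had a match without a mismatch in the same windows and 14.0% had one with at most 2. SESN1 had 3 mismatches at best, and 70.7% of all genes had a match with at most 3. The 9 genes were chosen as known p53 targets, so a closer match than in other genes is no independent result. These are matches of letters only, since binding was not measured. The windows also cover only the bases near a listed start.

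The targeted gene was close to the limit of detection. For LINC00885, counts were 6, 7 and 12 under the control siRNA, 4, 5 and 2 under siRNA.1, and 2, 0 and 4 under siRNA.2. All 6 siRNA libraries thus held fewer counts than any control library. The log2 change was -1.21 ± 0.95 (SE) with siRNA.1 (edgeR quasi-likelihood test, adjusted p = 0.376) and -2.33 ± 1.01 with siRNA.2 (adjusted p = 0.0659), so neither fall passed the test. A count of 0 allows up to 3 counts at this depth. The paper reports knockdown of PARylator by its siRNAs as measured by qPCR, which is not part of these data.

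Counts on genes per library ranged from 15337917 to 17899074 (control), 15374616 to 17762752 (siRNA.1) and 19213164 to 22559998 (siRNA.2). Mitochondrial genes took 7.46% to 7.66%, 4.99% to 5.06% and 5.54% to 5.56% of the counts in the same order. All 9 squamous markers, among them TP63, KRT5, KRT14 and SOX2, averaged at least 1 FPKM in every group. They summed to 740 to 768 FPKM in the control libraries, against 505 to 541 under siRNA.1 and 533 to 551 under siRNA.2. The markers moved in both directions: 6 of the 9 fell with both siRNAs (TP63, SFN, KRT5, KRT17, PKP1 and SOX2), KRT6A and DSG3 rose with both, and KRT14 was not called with either. SFN and KRT5 are the main part of the lower sum, SFN being a p53 target as well. The 6 glandular markers summed to at most 0.11 FPKM in any library. The 6 blood cell markers summed to 0.26 to 0.61 FPKM in the control libraries, against 3.01 to 3.58 under siRNA.1 and 3.24 to 3.97 under siRNA.2. LYZ made up most of that sum in the siRNA libraries, and the B cell marker MS4A1 was listed at 0 in all 9 libraries. The 6 fibroblast markers summed to 2.23 to 2.49 FPKM in the control libraries, against 1.46 to 1.64 under siRNA.1 and 1.5 to 1.72 under siRNA.2. The 4 endothelial markers summed to 1.20 to 1.54, 0.63 to 0.89 and 0.42 to 0.55 FPKM in the same order, so that both sums were lower in every siRNA library. The part of the mitochondrial share and of the squamous, blood, fibroblast and endothelial markers in the results below was not tested. With the mitochondrial genes left out of the fit, the calls of the 9 targets were the same except for GADD45A with siRNA.1 (adjusted p = 0.0523, edgeR). In bulk RNA, fewer cells of a type and less RNA per cell cannot be told apart.

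In the control libraries the 9 targets spanned a wide range of levels. CDKN1A was the most abundant at 66.5 ± 4.17 FPKM (SD, n = 3), above 97.5% of the genes tested. GADD45A followed at 31.1 ± 2.61 FPKM. MDM2 (11.6 ± 0.052), GDF15 (10.8 ± 0.876), BTG2 (9.20 ± 0.479) and RRM2B (8.43 ± 0.886) formed a middle tier. ZMAT3 (2.15 ± 0.129), TP53INP1 (1.83 ± 0.148) and SESN1 (1.29 ± 0.110) lay near the median gene, with SESN1 above 45.1% of genes. The ranges of neighbours in this order overlapped for MDM2 and GDF15, for BTG2 and RRM2B, and for ZMAT3 and TP53INP1, so those pairs did not differ beyond their spread. The other neighbours stood apart. With either siRNA GDF15 moved up 1 place, past MDM2, and TP53INP1 became the lowest of the 9, with a range that overlapped that of SESN1 for siRNA.1.

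**Figure D1:**
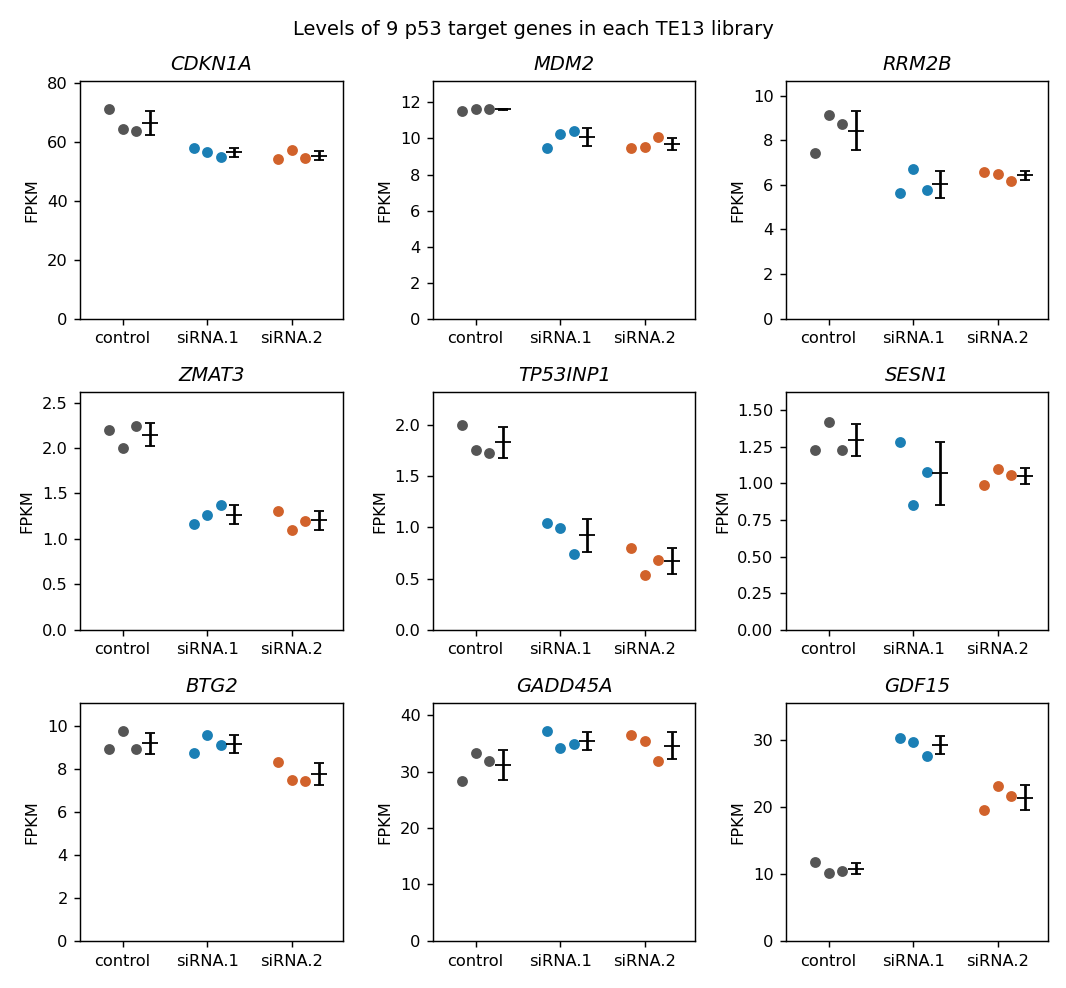
FPKM of each p53 target (vertical axis, linear and starting at 0) in the 3 libraries of each group (coloured points), with the group mean and SD in black. CDKN1A, MDM2, RRM2B, ZMAT3 and TP53INP1 lay below every control library in all 6 siRNA libraries, and GDF15 lay above every control library in all 6.

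With siRNA.1, 7 of the 9 targets passed the test at an adjusted p under 0.05, against 30.3% of all genes tested. CDKN1A, MDM2, RRM2B, ZMAT3 and TP53INP1 fell, while GDF15 and GADD45A rose, and SESN1 and BTG2 did not pass. Lower calls made up 15.2% and higher calls 15.0% of all genes. With siRNA.2, 7 of 9 passed against 30.9% of all genes. The same 5 genes and BTG2 fell (15.1% of all genes fell), and GDF15 alone rose (15.8% of all genes rose). Called lower with both siRNAs were 5 of the 9, against 10.2% of all genes, and called higher with both was 1, against 11.1%. The 9 had a median log2 change of -0.26 under siRNA.1 and -0.27 under siRNA.2, beside medians of -0.0006 and 0.004 over all genes. Both comparisons use the same 3 control libraries, so they are not independent of each other. Groups that did not overlap numbered 7 of 9 with siRNA.1 (38.5% of all genes) and 8 of 9 under siRNA.2 (39.8% of all genes). With siRNA.1, 5 targets lay wholly below the controls (19.5% of all genes) and 2 wholly above (19.0%). With siRNA.2, 7 lay wholly below (19.4%) and 1 wholly above (20.4%).

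**Figure D2:**
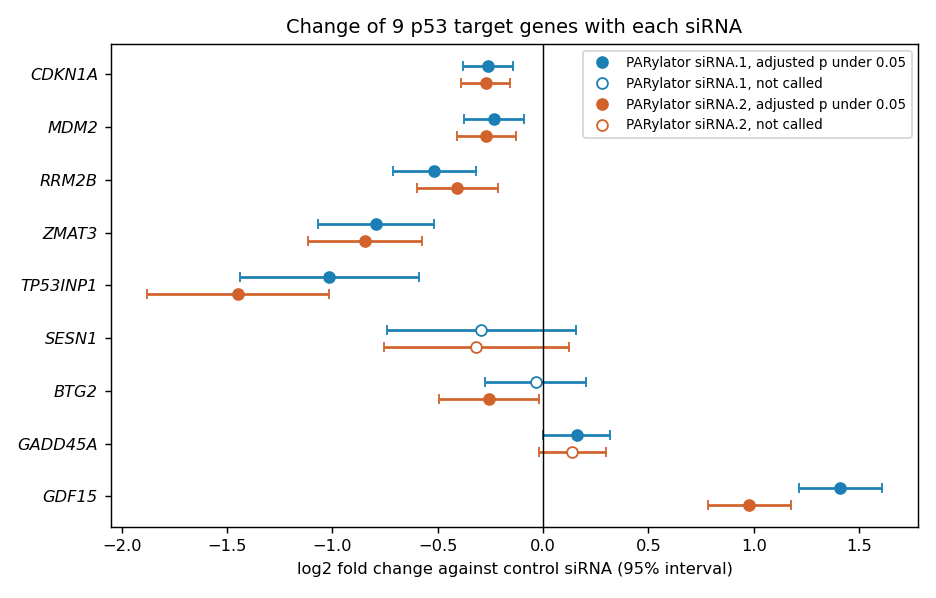
Log2 fold change of each p53 target with siRNA.1 (blue) and siRNA.2 (orange) against control siRNA, with 95% intervals from the standard error and 6 residual degrees of freedom. Filled points had an adjusted p under 0.05; TP53INP1 lay farthest to the left (-1.01 and -1.45) and GDF15 farthest to the right (1.41 and 0.98).

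CDKN1A and MDM2, the cell cycle arm and the feedback arm of the p53 response, fell by small amounts with both siRNAs. CDKN1A (ENSG00000124762, chr6:36676460-36687337, plus strand) encodes p21, an inhibitor of cyclin-dependent kinases. It measured 71.3, 64.4 and 63.8 FPKM in the control libraries, 58.1, 56.8 and 54.8 with siRNA.1, and 54.4, 57.3 and 54.6 with siRNA.2. Every siRNA library lay below every control library, and both siRNAs covered nearly the same range. The level fell by 16.5% with siRNA.1 (log2 change -0.26 ± 0.05 SE, adjusted p = 6.48e-07, edgeR), and fell by 17.2% with siRNA.2 (-0.27 ± 0.05, adjusted p = 1.19e-07).

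MDM2 (ENSG00000135679, chr12:68808177-68845544, plus strand) encodes the ubiquitin ligase that holds p53 down, and is itself induced by p53. It measured 11.55, 11.64 and 11.64 FPKM in the control libraries, 9.50, 10.3 and 10.4 with siRNA.1, and 9.49, 9.54 and 10.1 with siRNA.2. The 3 control libraries were almost level, and all 6 siRNA libraries lay below them. The level fell by 15.0% with siRNA.1 (log2 change -0.23 ± 0.06, edgeR adjusted p = 0.000397), and fell by 17.0% with siRNA.2 (-0.27 ± 0.06, adjusted p = 2.61e-05). In GENCODE 44 an exon of the antisense RNA DINOL shares 146 bases with CDKN1A, and DINOL had 11 counts in all libraries together. Exons of CPM on the other strand share 133 bases with MDM2. CPM had 421 counts in all, and its log2 changes of -0.23 and -0.06 were not called (adjusted p = 0.598 and 0.912). Whether counting used the strand is not given in the sources used here.

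The largest falls were those of TP53INP1 and ZMAT3. TP53INP1 (ENSG00000164938, chr8:94925972-94949378, minus strand) encodes a stress protein that takes part in cell death and autophagy. It measured 2.00, 1.76 and 1.73 FPKM in the control libraries, 1.04, 0.99 and 0.74 with siRNA.1, and 0.80, 0.54 and 0.68 with siRNA.2. No siRNA library reached the level of a control library, and the siRNA.2 values reached lower than the siRNA.1 values with overlap between them. The level fell by 50.5% with siRNA.1 (log2 change -1.01 ± 0.17, edgeR adjusted p = 6.05e-08), and fell by 63.3% with siRNA.2 (-1.45 ± 0.18, adjusted p = 4.62e-15). These values rest on 59 to 175 counts per library. Exons of NDUFAF6, a gene for the assembly of mitochondrial complex I, share 225 bases with TP53INP1 on the other strand. NDUFAF6 had 1934 counts in all, with a log2 change of 0.33 with siRNA.1 (adjusted p = 0.0472) and 0.29 with siRNA.2 (adjusted p = 0.0837), both of the opposite sign to TP53INP1.

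ZMAT3 (ENSG00000172667, chr3:178960121-179072215, minus strand) encodes a zinc finger protein that binds RNA and acts in tumour suppression by p53. It measured 2.20, 2.00 and 2.24 FPKM in the control libraries, 1.16, 1.26 and 1.37 with siRNA.1, and 1.31, 1.10 and 1.20 with siRNA.2. The control libraries lay apart from all siRNA libraries. The level fell by 42.3% with siRNA.1 (log2 change -0.79 ± 0.11, edgeR adjusted p = 2.76e-11), and fell by 44.3% with siRNA.2 (-0.84 ± 0.11, adjusted p = 4.09e-13). ZMAT3 is the gene whose intron holds the full p53 consensus shown above.

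RRM2B (ENSG00000048392, chr8:102204502-102238961, minus strand) encodes p53R2, the subunit of ribonucleotide reductase that supplies nucleotides for DNA repair. It measured 7.44, 9.14 and 8.72 FPKM in the control libraries, 5.62, 6.71 and 5.75 with siRNA.1, and 6.59, 6.49 and 6.18 with siRNA.2. The lowest control library was nearer to the siRNA libraries than the other controls were, but the groups did not overlap. The level fell by 30.1% with siRNA.1 (log2 change -0.52 ± 0.08, edgeR adjusted p = 2.82e-09), and fell by 24.5% with siRNA.2 (-0.41 ± 0.08, adjusted p = 2.60e-06). Its paralogue RRM2, the subunit used in S phase, went the other way. RRM2 averaged 25.7 FPKM in the control libraries, 30.9 under siRNA.1 and 36.1 under siRNA.2, and rose with both (log2 change 0.24, adjusted p = 5.42e-07, and 0.48, adjusted p = 4.00e-26).

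SESN1 and BTG2 gave smaller or less regular differences. SESN1 (ENSG00000080546, chr6:108986437-109094819, minus strand) encodes sestrin 1, which restrains mTORC1 signalling. It measured 1.23, 1.42 and 1.23 FPKM in the control libraries, 1.28, 0.85 and 1.08 with siRNA.1, and 0.99, 1.10 and 1.06 with siRNA.2. The siRNA.2 libraries lay below the controls, whereas 1 siRNA.1 library lay among them. The log2 change was -0.29 ± 0.18 with siRNA.1 (95% interval -0.74 to 0.16, edgeR adjusted p = 0.244) and -0.32 ± 0.18 with siRNA.2 (-0.76 to 0.13, adjusted p = 0.192). With 67 to 122 counts per library, a fall of the size seen in CDKN1A lay inside both intervals and was not detectable at this depth.

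BTG2 (ENSG00000159388, chr1:203305491-203309602, plus strand) encodes an antiproliferative protein that promotes the removal of poly(A) tails. It measured 8.92, 9.75 and 8.92 FPKM in the control libraries, 8.74, 9.58 and 9.14 with siRNA.1, and 8.34, 7.51 and 7.44 with siRNA.2. The siRNA.1 libraries covered the same range as the controls, and the siRNA.2 libraries lay below both. The log2 change was -0.03 ± 0.10 with siRNA.1 (95% interval -0.27 to 0.20, edgeR adjusted p = 0.850). With siRNA.2 the level fell by 16.2% (-0.26 ± 0.10, adjusted p = 0.0309), a call that 4 of 19 alternative fits did not make. Those were the fits without the expression filter (adjusted p = 0.0590), without control replicate 2 (0.142), without siRNA.2 replicate 2 (0.0931) and without siRNA.2 replicate 3 (0.116).

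GADD45A (ENSG00000116717, chr1:67685201-67688334, plus strand) encodes a small stress sensor with a role in the G2/M checkpoint. It measured 28.3, 33.3 and 31.8 FPKM in the control libraries, 37.1, 34.3 and 34.9 with siRNA.1, and 36.5, 35.5 and 31.9 with siRNA.2. The siRNA.1 libraries lay above the controls by a small margin, and 1 siRNA.2 library lay among the controls. The level rose by 11.7% with siRNA.1 (log2 change 0.16 ± 0.07, edgeR adjusted p = 0.0473), and this call was absent from 13 of the 19 alternative fits. With siRNA.2 the log2 change was 0.14 ± 0.06 (adjusted p = 0.0877), and 2 of the 19 alternative fits called it.

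GDF15 was the 1 target of 9 called higher with both siRNAs. GDF15 (ENSG00000130513, chr19:18374731-18389176, plus strand) encodes a secreted cytokine of the TGF-beta superfamily that is raised in many forms of cell stress. It measured 11.8, 10.2 and 10.4 FPKM in the control libraries, 30.3, 29.8 and 27.7 with siRNA.1, and 19.5, 23.1 and 21.6 with siRNA.2. The 3 groups did not overlap, with the control libraries lowest and the siRNA.1 libraries highest. The level was 2.66-fold that of the control with siRNA.1 (log2 change 1.41 ± 0.08, edgeR adjusted p = 5.26e-67) and 1.97-fold with siRNA.2 (0.98 ± 0.08, adjusted p = 6.38e-32). Called with a change of at least 2-fold were 2 of the 9 targets with siRNA.1 (GDF15 and TP53INP1, against 3.96% of all genes) and 1 with siRNA.2 (TP53INP1, against 4.02%).

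The siRNAs were also compared with each other. The siRNA.2 level of GDF15 was 0.741-fold that under siRNA.1 (log2 difference -0.43 ± 0.07, edgeR adjusted p = 1.96e-07) and was the 1 target of 9 called, against 12.2% of all genes (6.06% lower with siRNA.2, 6.10% higher). TP53INP1 had a log2 difference of the same size, -0.43 ± 0.19, but a wider interval (-0.89 to 0.02, adjusted p = 0.124). For BTG2 the difference was -0.22 ± 0.10 (-0.46 to 0.02, adjusted p = 0.134), and its libraries, like those of GDF15, did not overlap between the siRNAs (2 of 9 targets, 24.7% of all genes). For the other 6 targets the log2 difference lay between -0.05 and 0.11. Its 95% interval ran from -0.13 to 0.10 for CDKN1A, from -0.18 to 0.11 for MDM2, from -0.33 to 0.23 for ZMAT3 and from -0.09 to 0.31 for RRM2B. For SESN1 it ran from -0.47 to 0.42 and for GADD45A from -0.18 to 0.14.

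TP63 and TP73, the relatives of p53, fell with both siRNAs. TP63, which directs squamous identity, averaged 21.4 FPKM in the control libraries. It fell slightly with both siRNAs, by 0.15 and 0.21 on the log2 scale (adjusted p = 0.0130 and 0.000191). TP73 averaged 2.73 FPKM in the control libraries, then 1.78 (siRNA.1) and 1.88 (siRNA.2), and fell with both (log2 change -0.65, adjusted p = 1.06e-06, and -0.55, adjusted p = 2.77e-05). These are levels of mRNA, and protein was not measured here.

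**Figure D3:**
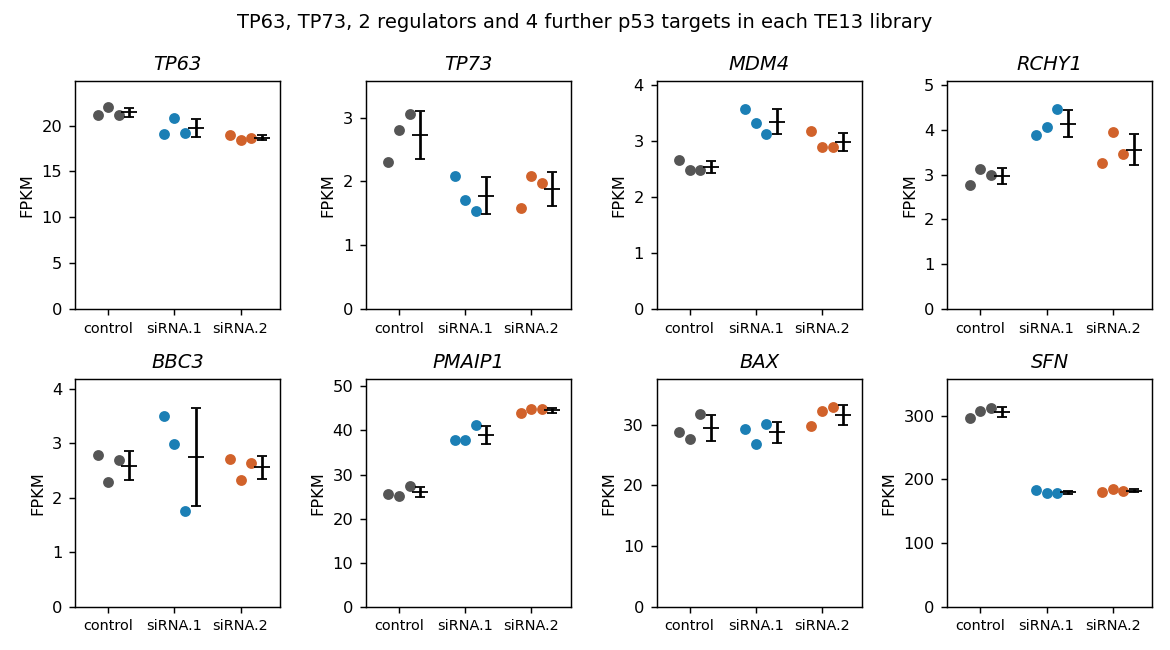
FPKM of TP63, TP73, MDM4, RCHY1, BBC3, PMAIP1, BAX and SFN (vertical axes, linear and starting at 0) in the 3 libraries of each group, with mean and SD in black. BBC3 and BAX overlapped between control and siRNA libraries, PMAIP1 lay above and SFN below every control library with both siRNAs.

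Of 19 genes for the p53 family and its regulators, 18 were tested, and CDKN2A was left out, as its mean over the 9 libraries was under the filter. With siRNA.1, 3 were higher, 7 lower and 8 not called, with a median log2 change of -0.10. With siRNA.2, 3 were higher, 6 lower and 9 not called, with a median of -0.01. For this and the lists that follow, the shares over all genes stand beside them: siRNA.1 had 15.0% higher and 15.2% lower, siRNA.2 15.8% and 15.1%, and both together 11.1% and 10.2%. MDM4, the partner of MDM2, rose with both (0.37, edgeR adjusted p = 0.000116, and 0.22, adjusted p = 0.0339), opposite in direction to MDM2. RCHY1, another ubiquitin ligase for p53, rose by 0.45 and 0.25 (adjusted p = 5.99e-05 and 0.0425), and the kinase HIPK2 by 0.22 and 0.27 (adjusted p = 0.0457 and 0.0104). The kinase DYRK2 and TP53BP1, which encodes the repair factor 53BP1, fell with both, DYRK2 by 0.34 and 0.31 and TP53BP1 by 0.31 and 0.30 on the log2 scale (adjusted p at most 3.96e-05).

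A longer list of 38 other p53 targets, written from general knowledge with earlier results of these data known, was tested in full. With siRNA.1, 11 were higher, 14 lower and 13 not called, and with siRNA.2 11 were higher, 11 lower and 16 not called. The same direction was called with both for 6 higher and 10 lower genes, and the median log2 change was 0.03 and 0.02. The genes named next are those with the largest mean change among the called ones.

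Of these other targets, SFN, FDXR, DDB2 and DRAM1 fell most. SFN, which encodes the cell cycle inhibitor 14-3-3 sigma and also belongs to the squamous markers, fell from 305 ± 7.70 FPKM in the control libraries to 180 ± 2.30 under siRNA.1 and 182 ± 2.75 under siRNA.2 (log2 change -0.79 and -0.75, edgeR adjusted p = 4.99e-71 and 5.03e-66). FDXR, a mitochondrial reductase, fell by 0.87 and 0.51 on the log2 scale. DDB2, which recognises ultraviolet damage in DNA, fell by 0.64 and 0.51, and DRAM1, an autophagy gene, fell by 0.66 and 0.36.

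The other targets that rose most were TRIM22, PMAIP1, AEN and TNFRSF10A. TRIM22, known also as an interferon-induced antiviral gene, measured 6.76 FPKM in the control libraries and 16.1 and 15.2 with siRNA.1 and siRNA.2 (log2 change 1.23 and 1.16). PMAIP1, which encodes the cell death protein NOXA, measured 25.7, 25.0 and 27.3 FPKM in the control libraries, 37.7, 37.9 and 41.3 with siRNA.1, and 43.9, 44.9 and 45.0 with siRNA.2. All siRNA libraries lay above the controls, and PMAIP1 rose by 0.56 and 0.77 on the log2 scale (edgeR adjusted p = 7.89e-18 and 1.69e-34). AEN, a nuclease of apoptosis, rose by 0.57 and 0.73, and the death receptor gene TNFRSF10A by 0.29 and 0.45. BBC3, which encodes PUMA, measured 2.78, 2.28 and 2.70 FPKM in the control libraries, 3.50, 2.98 and 1.76 with siRNA.1, and 2.71, 2.32 and 2.64 with siRNA.2. The groups overlapped widely, and the log2 change was 0.06 ± 0.15 and -0.03 ± 0.15 (edgeR adjusted p = 0.841 and 0.934). By Western blotting, the paper reports more NOXA and more PUMA protein after PARylator knockdown in ESCC cells, TE13 among them. The values here are of RNA, and protein is not part of these data.

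The paralogues of the 9 targets did not move with them as a set. Of 13 paralogues 10 were tested, and with siRNA.1 4 were higher and 1 lower, with siRNA.2 5 higher and 2 lower. BTG1, a relative of BTG2, rose by 0.73 and 0.78 on the log2 scale (edgeR adjusted p = 3.34e-44 and 4.74e-50), and BTG3 by 0.25 and 0.39. TP53INP2 fell by 0.53 and 0.89 (adjusted p = 0.000131 and 1.79e-11), as TP53INP1 did. The relatives of CDKN1A, CDKN1B and CDKN1C, were not called with either siRNA. SESN2 rose with siRNA.2 (0.33, adjusted p = 0.00169), with 0.22 and an adjusted p of 0.0591 with siRNA.1. GADD45B fell with siRNA.2 (-0.36, adjusted p = 0.00332), with -0.05 and an adjusted p of 0.794 with siRNA.1.

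p21 acts on many cell cycle genes through the DREAM repressor complex, and 18 such genes were read beside CDKN1A. With siRNA.1 4 were higher and 7 lower, with siRNA.2 5 higher and 3 lower, and the median log2 change was -0.07 and 0.01. E2F1, RRM2, MCM5 and AURKB, which serve S phase entry, replication and mitosis, rose with both. CDC25C, CCNB1 and MKI67 fell with both, CCNB1 by 0.28 and 0.23 on the log2 scale (edgeR adjusted p = 7.34e-08 and 1.11e-05).

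GDF15 being a known ATF4 target, genes of ATF4 and its stress response were read beside it, from a list written with earlier results of these data known. Of 15 genes 14 were tested, and 13 were higher and 0 lower with each siRNA, 12 of them with both, against 15.0%, 15.8% and 11.1% of all genes called higher. The list's median log2 change was 0.82 for siRNA.1, 0.76 for siRNA.2. The 1 gene not called was SESN2 with siRNA.1 and CEBPB with siRNA.2. ATF4 itself rose from 154 FPKM in the control libraries to 187 and 200, and DDIT3, which encodes the stress factor CHOP, from 5.48 to 13.0 and 11.9. ATF3 averaged 5.17 FPKM in the control libraries, 13.0 under siRNA.1 and 10.4 under siRNA.2, and like GDF15 its siRNA.2 level lay below its siRNA.1 level (log2 difference -0.30, edgeR adjusted p = 0.00137). PSAT1, of serine synthesis, was instead higher with siRNA.2 than with siRNA.1 (0.32, edgeR adjusted p = 7.59e-12). CHAC1, of glutathione breakdown, had a log2 difference of 0.02 (adjusted p = 0.951). Of the 14 genes tested, 4 were called higher with siRNA.2 than with siRNA.1 and 2 lower (6.10% and 6.06% of all genes). ATF4 itself was among the higher ones (0.11, edgeR adjusted p = 0.0436). The ATF4 element TGATGNAA, searched on both strands from 250 bases before to 50 after the RefSeq starts, was present in 0 of the 6 p53 targets with a start, in 3 of 13 genes of this list and in 4.46% of all genes. The window for GDF15 did not hold these letters, from which nothing follows about ATF4.

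**Figure D4:**
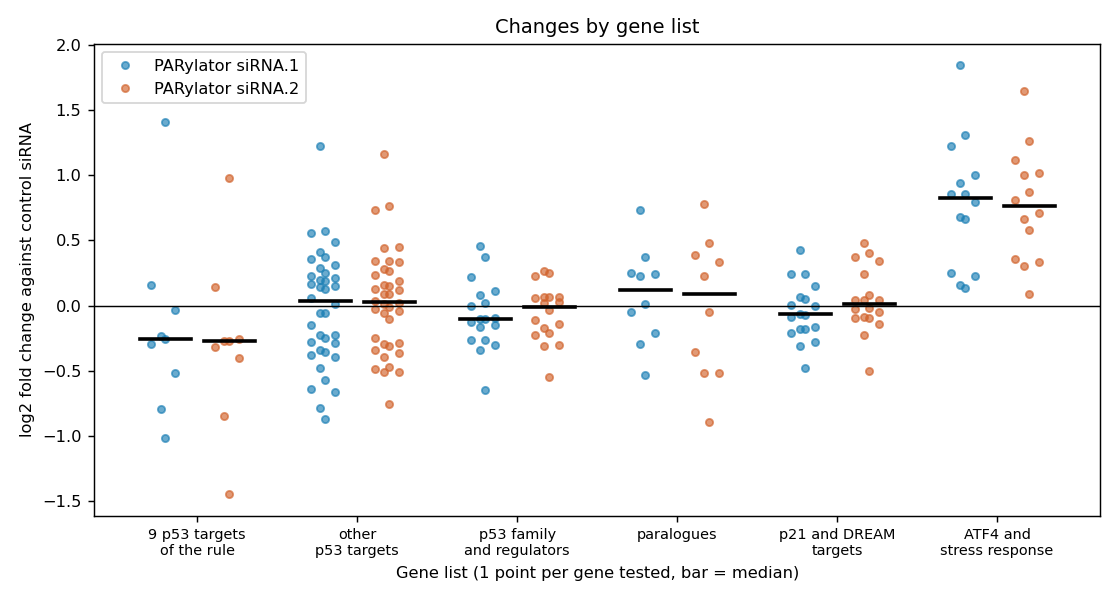
Log2 fold change against control siRNA (vertical axis) for each gene tested in 6 lists, with siRNA.1 in blue, siRNA.2 in orange and the list's median as a black bar. The 9 p53 targets had medians of -0.26 and -0.27, the 38 other targets of 0.03 and 0.02, and the stress response list of 0.82 and 0.76.

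For each target, the 2 other genes with the most similar pattern were found by the Pearson correlation of log2 CPM over the 9 libraries, among the 7145 genes that averaged 5 FPKM or more. The libraries form 3 groups, so these values mainly describe the order of the groups. GDF15 was nearest to HSH2D (r = 0.996) and ZNF622 (r = 0.992), for which the log2 changes against control under siRNA.1 and siRNA.2 were 0.98 and 0.67 (HSH2D) and 0.52 and 0.39 (ZNF622). ZMAT3 was nearest to AFAP1L2 (r = 0.990) and ATRX (r = 0.986), MDM2 to PGM2 (r = 0.990) and PRRC1 (r = 0.984), and CDKN1A to SERINC2 (r = 0.980) and PIAS3 (r = 0.974). TP53INP1 was nearest to MINK1 (r = 0.990) and MFSD6 (r = 0.988), and RRM2B to OPA1 (r = 0.984) and CRTC2 (r = 0.983). BTG2, nearest to ARAP1 and MVP (both r = 0.971), SESN1, nearest to ARPC4 (r = 0.946) and SPR (r = 0.943), and GADD45A, nearest to MLX (r = 0.931) and BAK1 (r = 0.923), had the least similar partners.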

How the data were processed

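RNA-seq of 9 TE13 libraries was analysed, 3 per condition, grouped by the labels. According to the methods, the authors enriched poly(A)+ RNA, used STAR to align reads (GRCh38) and featureCounts to count them; versions and strandedness are not given in the sources used here. The deposited table holds unnormalized gene counts beside FPKM made by the authors, which equalled counts over exonic length and the library total for 100% of values (tolerance 0.0051).

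Counts were tested with edgeR 4.0.16 (TMM, quasi-likelihood, the 3 groups in 1 fit) in R 4.3.3 over the 21395 genes averaging 0.1 FPKM or more, Benjamini-Hochberg adjusted over all of them, at a threshold of 0.05. SE is the absolute log2 change over the square root of F, and 95% intervals use 6 residual degrees of freedom. The test shares information on spread between genes and so has more degrees of freedom. These intervals are therefore wider than its p-values imply. The common biological coefficient of variation was 0.0566. Replicates differed by more than sampling noise. DESeq2 1.42.0, the tool the authors used, and limma 3.58.1 on log2(FPKM + 0.1) or log2(FPKM + 1) were alternatives, beside other scalings, filters, a replicate block and each library left out. The script was tested on simulated data.

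The 9 genes and the lists were chosen with earlier results of these data known. The text names all 9, in each list at most 4 genes per direction with the largest mean change among those called with both siRNAs at a mean of at least 1 FPKM, always TP63, TP73, MDM4, BBC3 and PMAIP1, and the 2 most similar genes. Some results that this rule covers are not reported here. BAX, SESN2, CEBPB, GADD45B, CDKN1B, CDKN1C, ATF4 and the neighbouring genes were named after their values were seen. Sequences are from RefSeq and the GRCh38 genome.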

Additional observations from a re-analysis of the deposited data

Results flagged for a closer look

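GDF15 differed between the siRNAs: its level with siRNA.2 was lower than with siRNA.1 by a log2 difference of -0.43 (edgeR adjusted p = 1.96e-07), with no overlap between the 3 libraries of each. Both siRNAs were above the control, by 1.41 and 0.98 on the log2 scale. The sign and the call held in all 19 alternatives, in which the difference lay between -0.49 and -0.36. No other target of the 9 was called between the siRNAs.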

How the results depend on the processing

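The calls of CDKN1A, MDM2, GDF15, RRM2B, ZMAT3 and TP53INP1 against control held with both siRNAs in all 19 alternatives, and SESN1 was called in none. Leaving out 1 library at a time gave 6 to 7 targets called with siRNA.1, 6 to 7 with siRNA.2 and 1 between the siRNAs, among 5615 to 6502, 5692 to 6713 and 1908 to 2696 genes. Asking for a 2-fold change as well left 2, 1 and 0 targets and 847, 861 and 130 genes. limma called 1437 genes between the siRNAs with a pseudocount of 0.1 and 1414 with 1, against 2603 with edgeR, and the cause was not tested. With the larger pseudocount, which shrinks low levels, TP53INP1 changed by -0.56 and -0.76 and ZMAT3 by -0.48 and -0.51. Signs that turned belonged to uncalled values and did so only when a library was left out. BTG2 with siRNA.1 lay between -0.0601 and 0.0084, and between the siRNAs CDKN1A lay between -0.0427 and 0.0120, SESN1 between -0.163 and 0.127, ZMAT3 between -0.108 and 0.0158 and GADD45A between -0.0491 and 0.0326. GADD45A was not called with siRNA.1 by DESeq2 (adjusted p = 0.0785) or with mitochondrial genes left out (0.0523), and over its alternatives the adjusted p ranged from 0.0193 to 0.363. It was called with siRNA.2 without control replicate 2 (0.0371) or siRNA.2 replicate 3 (0.0356). Same-numbered libraries deviated together (r above 0.1) in 1 of 9 pairs only (r from -0.193 to 0.107), so little shared effect of the replicate number was seen. Whether same-numbered cultures were made together is not given in the labels. With the replicate number as a block, 6 targets were called with siRNA.1, where GADD45A reached an adjusted p of 0.0654, and no other call of a target changed. Depth limits SESN1 and TP53INP1, which had 59 to 175 counts per library.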
